A study of Mus musculus with 26 samples.

Results

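The 45 genes described here carry a mouse oocyte through meiotic maturation: the MAPK cascade started by Mos, CDK1 with its cyclins and the enzymes that phosphorylate it, the Polo and Aurora kinases, the spindle checkpoint, the anaphase promoting complex (APC/C), the cohesin-protection genes, the spindle and kinetochore genes and the actin nucleators. They were taken by symbol from a named list that was drawn up with earlier results of these data known; the rule itself uses no measured value. All 45 were found among the 24450 mouse features of the deposited count table. All 45 also passed the filter on low counts that left 11794 genes for testing.

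A fully grown oocyte rests in prophase of the first meiotic division with an intact nucleus, the germinal vesicle (GV), because CDK1 is kept phosphorylated and inactive by WEE2 and MYT1. When CDC25 phosphatases remove these phosphates, the nucleus breaks down, a spindle forms and moves to the cortex on actin filaments, and the checkpoint holds back the APC/C until the chromosomes are attached. GV oocytes are nearly silent in transcription, so the mRNAs stored at this stage are the ones later translated, many of them after lengthening of their poly(A) tails.

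The study asked what a low-complexity domain (LCD) of the dioxygenase Tet3 does in the oocyte, on its own and together with the DNA methyltransferase Dnmt3a. Each library was made from polyadenylated RNA of a pool of 10 GV oocytes, one pool for each biological replicate named in the labels. There were 7 LCD KO libraries (floxed Tet3 LCD with Zp3-Cre), 5 HD mutant libraries (genotype Tet3 LCD HD Mut f/f with Zp3-Cre, with HD not spelled out in the sources used here), 2 Dnmt3a KO libraries (Dnmt3a f/f with Zp3-Cre), 2 DKO libraries (Dnmt3a f/f and Tet3 LCD f/f with Zp3-Cre), 2 libraries labelled Tet3 KO (Tet3 f/f with Zp3-Cre) and 6 WT libraries (Tet3 LCD f/f without Cre). Zp3-Cre, whose promoter is active in growing oocytes, was thus present in every group except WT, so that Cre itself and the floxed alleles cannot be told apart in any comparison with WT. The columns labelled TKO (Tet1, Tet2 and Tet3 floxed, with Zp3-Cre) held the same values as the columns labelled Tet3 KO and were not counted again.

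The labels place the libraries in 3 batches. LCD KO 1 to 3 and WT 1 to 3 were in batch 1. HD mutant 1 to 3, LCD KO 4 and 5 and WT 4 were in batch 2. LCD KO 6 and 7, all Dnmt3a KO, DKO and labelled Tet3 KO libraries and WT 5 and 6 were in batch 3. HD mutant 4 and 5 had no stated batch and entered no test in the main analysis. Total counts ran from 3329734 to 4309573 in batch 1, from 5403852 to 7833087 in batch 2, from 2558479 to 4144414 in batch 3 and from 1838824 to 2242310 in the HD mutant libraries of no stated batch. The TMM scaling factors were 0.733 to 0.759 in batch 1 and 0.927 to 1.20 elsewhere. Tet3 mRNA was lower than in WT in LCD KO (log2 fold change -1.78 ± 0.21), HD mutant (-1.86 ± 0.33) and DKO (-1.73 ± 0.36), and Dnmt3a mRNA was lower in Dnmt3a KO (-1.53 ± 0.20) and DKO (-1.81 ± 0.20). In the libraries labelled Tet3 KO, however, Tet3 mRNA was not lower (0.60 ± 0.33, adjusted p = 0.65) whereas Dnmt3a mRNA was (-1.48 ± 0.20, adjusted p = 4.1e-05), so the label goes against the counts and is quoted as such throughout. Levels are in CPM (counts normalised for library size, scaled with TMM factors), and fold changes are log2 values ± standard error from edgeR's quasi-likelihood test with group and batch terms, with Benjamini-Hochberg adjusted p-values over all 11794 genes and a threshold of 0.05.

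The summed level of 14 oocyte markers, among them the zona pellucida genes, was 14409 to 28728 CPM in LCD KO and 16875 to 39211 CPM in WT, whereas 12 granulosa and cumulus cell markers summed to 73.3 to 347 CPM in LCD KO and 64.5 to 119 CPM in WT. The high end of the granulosa range was 1 gene in 1 library, Inha with 292 CPM in LCD KO 2. Inha overlapped between the groups in batch 1. In batch 2 it had 18.8 and 42.0 CPM in LCD KO and 8.43 CPM in WT. In batch 3 it had 8.21 and 12.9 CPM in LCD KO and 0 and 0.268 CPM in WT. Its log2 fold change was 2.11 ± 0.71, just short of the threshold (adjusted p = 0.0513 in edgeR). The 8 theca and stroma markers summed to 9.91 to 29.4 CPM in LCD KO and 9.86 to 17.4 CPM in WT. The 8 blood and immune markers summed to 0.363 to 1.69 CPM in LCD KO and 0 to 2.51 CPM in WT. Hba-a1, Hbb-b1 and Adgre1 were at 0 in all 24 libraries. Of the 13 oocyte markers tested, 6 fell in LCD KO and none rose. Of all tested genes, 9.44% fell and 8.89% rose. Of the 5 granulosa and cumulus markers tested none passed. Of the 2 theca and stroma markers tested, Dcn rose (2.08 ± 0.44, adjusted p = 0.00161). The 1 blood marker tested, Cd68, did not pass. Each level is a share of a library's counts, so fewer oocytes of a pool carrying a transcript and less of it in each oocyte cannot be told apart. The libraries were made from polyadenylated RNA and poly(A) tail length was not measured, so its part in a level cannot be told apart either.

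Cytoplasmic polyadenylation elements (CPEs) in the 3′ UTR are the best known switch for translating stored oocyte mRNAs, so the 3′ ends of the members were searched for them. The last 100 bases of the annotated transcript were searched on the transcribed strand for TTTTAT or TTTTAAT, and for the poly(A) signals AATAAA or ATTAAA. A CPE was found in 12 of the 43 members whose 3′ UTR held 100 bases (27.9%) and in 2106 of 10521 tested genes (20.0%), and a poly(A) signal in 86.0% of members and 81.5% of tested genes. The 12 were Aurka, Aurkb, Aurkc, Bub1b, Ccnb3, Cenpe, Fbxo5, Kif11, Ndc80, Sgo2a, Spire1 and Wee2. A single annotated transcript was searched for each gene, for these forms of the element only. A member not listed, Mos among them, is therefore not shown to lack a CPE. The following windows are shown because they hold a CPE and end with a poly(A) signal within 30 bases, the arrangement described for polyadenylation during maturation; the capitals mark the CPE and the signal, which run into each other in Aurkb and Bub1b.
Wee2: cataTTTTAATccagatcattgtaAATAAA
Aurkb: aaattatgaagaacaacaTTTTATAATAAA
Aurkc: tttctcTTTTATgaagtgatgttaATTAAA
Bub1b: ctctcctttcactgtgtaTTTTATAATAAA
They lie at chr6:40466764-40466793, chr11:69051610-69051639, chr7:7003042-7003071 and chr2:118641547-118641576 in GRCm38, all on the plus strand and in the annotated 3′ UTR. These letters are a description of the annotated ends, and which ends are used in these oocytes was not measured. Of the 34 members with a RefSeq promoter window of 300 bases (GRCm38.p6), the number of CpG dinucleotides, taken as the highest over a gene's annotated starts, ran from 5 to 40 with a median of 20.5, against a median of 22.0 over 9281 tested genes.

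The stored mRNAs of this group spanned a wide range in WT oocytes. Per kilobase of annotated exon, the highest was Pttg1, which encodes securin, the inhibitor of separase, with a median of 2199 CPM per kb (849.5 to 3248, n = 6 libraries). Mos, the kinase that starts the MAPK cascade, followed with 1448 CPM per kb (483 to 2080.0), and Ccnb1, the main mitotic cyclin of CDK1, with 761 CPM per kb (236 to 931). These 3 stood above the rest: Ccnb1 was higher than the next gene, Birc5, in all 6 WT libraries.

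**Figure D1:**
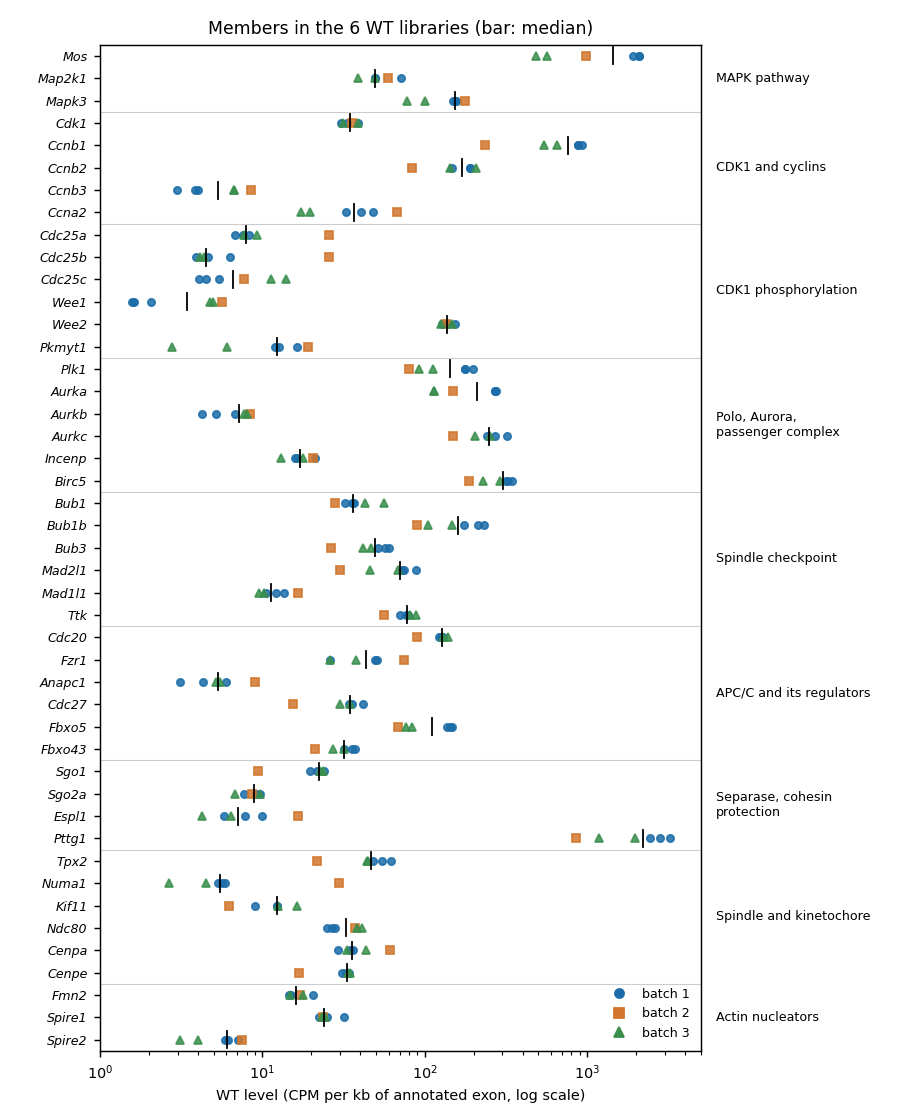
Level of each member in the 6 WT libraries, in CPM per kilobase of annotated exon on a log axis, with members grouped by role; the bar is the median over libraries and the symbols mark the batch. The median ran from 3.42 for Wee1 to 2199 for Pttg1, and the single batch 2 library often lay apart from the others.

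Below them came the chromosomal passenger subunit Birc5 (survivin, median 304 CPM per kb), the germline Aurora kinase Aurkc (247), the spindle pole kinase Aurka (210.3), Ccnb2 (168), the checkpoint kinase Bub1b, which encodes BUBR1 (161), and the MAP kinase Mapk3 (153). Of the WEE1 kinases and of the Aurora kinases of the passenger complex, the oocyte form was the higher one. Wee2, the oocyte WEE1 kinase, had a median of 138 CPM per kb and Wee1 3.42, and Aurkc had 247 against 7.21 for Aurkb, the somatic passenger kinase. The CDC25 phosphatases were all low, with 7.94 for Cdc25a, 6.58 for Cdc25c and 4.48 for Cdc25b, although CDC25B is the one needed for meiotic resumption in the mouse. Most neighbours in the order were not separable: of 44 neighbouring pairs, 3 kept their order in every one of the 6 WT libraries.

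Batch was a strong source of spread in the members, and it sets how the comparisons have to be read. The distance between the highest and the lowest batch, taken over LCD KO and WT libraries, had a median of 0.95 on the log2 scale over the 45 members and exceeded 1 in 20 of them (44.4%), against a median of 0.85 and a share of 39.8% over all tested genes. Pttg1 was at 7829.7, 8625 and 6935 CPM in LCD KO and 4284, 4971 and 5736 CPM in WT in batch 1, but at 1376 and 1424 CPM in LCD KO and 1500.2 CPM in WT in batch 2. The spindle pole protein gene Numa1 went the other way, with 27.9, 28.3 and 24.7 CPM in LCD KO and 42.2, 38.3 and 40.2 CPM in WT in batch 1, and 118 and 173 CPM in LCD KO and 213 CPM in WT in batch 2. WT 4, the 1 WT library of batch 2, therefore weighs heavily on every statement about the HD mutant.

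A small and mixed set of these genes differed between LCD KO and WT oocytes. In LCD KO against WT, Mos, Map2k1, Plk1 and Mad1l1 fell and Cdk1, Cdc25c, Tpx2 and Spire1 rose. These 8 of 45 members (17.8%) compare with 18.3% of all tested genes, and the 4 that rose and the 4 that fell compare with 8.89% and 9.44% of all tested genes. The members as a group were therefore called about as often as any gene, and their median log2 fold change was 0.01 against -0.02 over all genes. Of the 8, Mos, Map2k1, Plk1, Mad1l1, Cdk1, Cdc25c and Tpx2 had LCD KO and WT libraries that did not overlap, in 1 direction, in each of the 3 batches; these 7 members (15.6%) compare with 11.5% of all tested genes.

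Mos fell the furthest in relation to its error. It had 1584, 1556 and 1522 CPM in the LCD KO libraries of batch 1, against 3014, 2772 and 3003 CPM in WT. In batch 2 it had 779.8 and 824 CPM in LCD KO, against 1425 CPM in WT, and in batch 3 569 and 509 CPM in LCD KO, against 820.3 and 699 CPM in WT. Every LCD KO library was below every WT library of its batch, although LCD KO in batch 1 was above WT in batch 3. The log2 fold change was -0.77 ± 0.12 (adjusted p = 8.8e-05), with -0.89, -0.80 and -0.50 within batches 1, 2 and 3, and it stayed called when any of the 13 libraries was left out. Without a batch term it was -0.90 (adjusted p = 0.178).

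The kinase that MOS phosphorylates moved the same way. Map2k1, which encodes MEK1, had 82.7, 89.8 and 95.4 CPM in LCD KO and 173, 121 and 121 CPM in WT in batch 1, and 121 and 121 CPM in LCD KO and 144 CPM in WT in batch 2. In batch 3 the values were 90.9 and 93.7 CPM in LCD KO and 94.3 and 119 CPM in WT. The LCD KO libraries were lower in each batch, narrowly so in batch 3. The log2 fold change was -0.42 ± 0.12 (adjusted p = 0.0191); leaving out WT 1 gave -0.32 (adjusted p = 0.0597) and leaving out LCD KO 1 gave -0.38 (adjusted p = 0.0514). Mapk3, the ERK1 gene at the end of the cascade, had a log2 fold change of -0.08 ± 0.11 (adjusted p = 0.639), with 261 ± 53.7 CPM in LCD KO and 274 ± 76.8 CPM in WT (SD, n = 7 and 6).

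Of CDK1 and its cyclins, the kinase alone passed the test. Cdk1 had 232, 289 and 235 CPM in LCD KO and 173, 149 and 136 CPM in WT in batch 1, and 174 and 166 CPM in LCD KO and 158 CPM in WT in batch 2. In batch 3 the values were 229.8 and 183 CPM in LCD KO and 174 and 140.0 CPM in WT. The LCD KO libraries were higher in each batch, by little in batch 2, and the log2 fold change was 0.48 ± 0.12 (adjusted p = 0.00477). Ccnb1 had 1904, 2009 and 2211 CPM in LCD KO and 2316, 2194 and 2171 CPM in WT in batch 1, and 607 and 557 CPM in LCD KO and 587 CPM in WT in batch 2. In batch 3 the values were 1373 and 1129 CPM in LCD KO and 1616 and 1351 CPM in WT. The groups overlapped in each batch, the batch 2 libraries of both groups were far below the others, and the log2 fold change was -0.14 ± 0.10 (adjusted p = 0.378). The values of Ccnb2, which can stand in for Ccnb1 in mouse oocytes, of Ccnb3, which promotes anaphase of the first division, and of Ccna2 were -0.26, 0.10 and -0.23, with adjusted p-values from 0.195 to 0.718.

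Among the enzymes that add or remove the inhibitory phosphates of CDK1, the phosphatase Cdc25c passed. Its level was 21.8, 33.2 and 22.5 CPM in LCD KO and 7.95, 8.79 and 10.5 CPM in WT in batch 1, 21.4 and 24.2 CPM in LCD KO and 15.1 CPM in WT in batch 2, and 40.7 and 27.2 CPM in LCD KO and 27.0 and 22.0 CPM in WT in batch 3. The gap was wide in batch 1 and narrow in batch 3, with within-batch log2 fold changes of 1.53, 0.63 and 0.46 in batches 1 to 3. Over all batches it was 0.92 ± 0.19 (adjusted p = 0.00161), and it stayed called when any 1 library was left out. Cdc25a (0.13 ± 0.18) and Cdc25b (-0.17 ± 0.21) did not pass, nor did the inhibitory kinases Wee1 (0.49 ± 0.20, adjusted p = 0.0908), Wee2 (-0.27 ± 0.11, adjusted p = 0.0908) and Pkmyt1, the MYT1 gene (-0.19 ± 0.24). Wee2, the kinase that keeps the oocyte in prophase, had 336 ± 45.9 CPM in LCD KO and 398 ± 31.5 CPM in WT (SD, n = 7 and 6), and was one of the members with the least spread between batches.

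In the Polo and Aurora group, Plk1, a kinase needed for spindle assembly and for activating the APC/C, was the one called. It had 327, 312 and 309 CPM in LCD KO and 387, 437 and 386 CPM in WT in batch 1, 158 and 165 CPM in LCD KO and 176 CPM in WT in batch 2, and 181 and 191 CPM in LCD KO and 202 and 246 CPM in WT in batch 3. Although no LCD KO library reached the WT libraries of its batch, the call was marginal (-0.28 ± 0.10, adjusted p = 0.0496). It held when WT 4 or WT 5 was left out (adjusted p = 0.0426 and 0.0268) and was lost when any other of the 13 libraries was, with adjusted p-values up to 0.12. Aurka (0.07 ± 0.11), Aurkb (0.40 ± 0.18, adjusted p = 0.12), Aurkc (0.10 ± 0.12) and the passenger subunits Incenp (0.07 ± 0.15) and Birc5 (0.03 ± 0.10) did not pass. Birc5 had 942 ± 278 CPM in LCD KO and 959 ± 211 CPM in WT (SD, n = 7 and 6).

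Of the spindle checkpoint genes, Mad1l1 fell. MAD1, its product, recruits MAD2 to unattached kinetochores. It had 20.7, 23.0 and 26.1 CPM in LCD KO and 32.1, 35.8 and 27.7 CPM in WT in batch 1, 24.4 and 26.2 CPM in LCD KO and 43.7 CPM in WT in batch 2, and 18.0 and 16.7 CPM in LCD KO and 25.1 and 27.0 CPM in WT in batch 3. The groups stood apart in each batch, narrowly so in batch 1, where LCD KO 3 and WT 3 each had 71 counts before scaling. The log2 fold change of -0.58 ± 0.15 (adjusted p = 0.00824) stayed called when any 1 library was left out. Of the 9 alternative settings other than leaving out a library, 3 called Mad1l1, against 5 for Mos, Cdk1, Cdc25c and Tpx2. Its partner Mad2l1 had 848, 1037 and 950.0 CPM in LCD KO and 577, 599 and 709 CPM in WT in batch 1, but 567 and 389.9 CPM in LCD KO and 548 and 370.1 CPM in WT in batch 3, where the groups overlapped. Its log2 fold change was of the opposite sign and just missed the threshold in edgeR (0.38 ± 0.14, adjusted p = 0.0513). It passed with DESeq2 (adjusted p = 0.0427) and in edgeR with no filter on low counts (adjusted p = 0.0298). The kinetochore kinase Bub1 was at 0.28 ± 0.12 (adjusted p = 0.09), Bub1b at -0.24 ± 0.14, Bub3 at 0.13 ± 0.13 and Ttk, which encodes the kinase MPS1, at -0.00 ± 0.10.

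No gene of the APC/C and its regulators passed. The activator genes Cdc20 and Fzr1 (CDH1) had log2 fold changes of 0.20 ± 0.12 and -0.27 ± 0.20, the core subunits Anapc1 and Cdc27 -0.17 ± 0.14 and -0.14 ± 0.14, and the inhibitors Fbxo5 (EMI1) and Fbxo43 (EMI2, which holds the arrest before fertilisation) -0.16 ± 0.12 and -0.07 ± 0.12. Their adjusted p-values lay between 0.255 and 0.725. The level of Cdc20 was 244 ± 48.2 CPM in LCD KO and 219 ± 30.5 CPM in WT, and that of Fbxo43 113 ± 17.6 CPM in LCD KO and 124 ± 23.8 CPM in WT (SD, n = 7 and 6).

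None of the separase and cohesin-protection genes passed in edgeR, and Sgo1 passed with DESeq2. Sgo1, whose product recruits the phosphatase that keeps cohesin on chromosomes, had 111, 119 and 105 CPM in LCD KO and 70.8, 78.8 and 87.4 CPM in WT in batch 1, 56.1 and 52.4 CPM in LCD KO and 33.9 CPM in WT in batch 2, and 73.9 and 89.4 CPM in LCD KO and 85.5 and 81.9 CPM in WT in batch 3. The LCD KO libraries were higher in batches 1 and 2 and overlapped WT in batch 3, at 0.36 ± 0.13 over all (adjusted p = 0.0581 in edgeR and 0.0408 with DESeq2). Sgo2a, the main protector of centromeric cohesin in mouse oocytes, was at 0.04 ± 0.15, with 44.7 ± 9.30 CPM in LCD KO and 42.5 ± 5.64 CPM in WT (SD, n = 7 and 6); reads shared with its paralog Sgo2b could add to it. The separase gene Espl1 was at 0.03 ± 0.17 and Pttg1 at 0.28 ± 0.15.

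Tpx2, whose product activates Aurora A and nucleates spindle microtubules, rose the most clearly of all members. It had 441, 494 and 318 CPM in LCD KO and 210.1, 237 and 272 CPM in WT in batch 1, 166 and 157 CPM in LCD KO and 95.2 CPM in WT in batch 2, and 291 and 257 CPM in LCD KO and 195 and 193 CPM in WT in batch 3. Each LCD KO library was above the WT libraries of its batch, and the log2 fold change was 0.70 ± 0.12 (adjusted p = 0.000183), with every leave-one-out fit still calling it. The other spindle and kinetochore genes did not pass: Numa1 was at -0.38 ± 0.21, the spindle motor gene Kif11 at -0.15 ± 0.16, Ndc80, which binds microtubule ends at the kinetochore, at 0.23 ± 0.11, the centromeric histone gene Cenpa at -0.14 ± 0.12 and the kinetochore motor gene Cenpe at 0.37 ± 0.14 (adjusted p = 0.0674, and 0.0497 with no filter on low counts).

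Spire1 was the one actin nucleator called. SPIRE1 works with formin 2 to build the actin mesh that moves the spindle to the cortex. Its level was 185, 179.7 and 194 CPM in LCD KO and 181, 142 and 126 CPM in WT in batch 1, 176 and 175 CPM in LCD KO and 134 CPM in WT in batch 2, and 169 and 170.2 CPM in LCD KO and 134 and 139 CPM in WT in batch 3. The groups overlapped in batch 1 because WT 1 was high. The log2 fold change was 0.33 ± 0.11 (adjusted p = 0.039); without WT 1 it was 0.39 (adjusted p = 0.0222), and without any other 1 of the 13 libraries the call was lost, with adjusted p-values up to 0.119. Fmn2, the formin 2 gene, was at 0.01 ± 0.14 with 113 ± 26.7 CPM in LCD KO and 107 ± 14.9 CPM in WT, and Spire2 at 0.01 ± 0.19 with 14.2 ± 3.07 CPM in LCD KO and 14.1 ± 4.32 CPM in WT (SD, n = 7 and 6).

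Within batch 2 or batch 3 alone, where LCD KO and WT had 2 against 1 and 2 against 2 libraries, edgeR called none of the 45 members. In batch 1 alone, with 3 against 3, it called 15, of which 6 were among the 8, against 30.3% of all genes tested in that batch. In simulated counts at the depth and spread of the real libraries, 96 of 11794 genes were changed by 0.5 on the log2 scale and 104 by 1. All other group differences were removed. The test of LCD KO against WT recovered 15.6% and 68.3% of the changed genes. It made 92 calls in all, against 2162 in the real data. The adjusted threshold was therefore stricter in the simulation, and these shares do not carry over to the real test. A member that missed the threshold is still not shown to be unaltered. Counts of Plk1 and Mad1l1 could include reads of Gm44985 and Gm16121, annotated on the opposite strand over 156 and 37 of their exon bases, because the strand setting of the counting is not given in the sources used here. What part the lower level of oocyte markers in LCD KO has in the lower Mos was not tested.

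**Figure D2:**
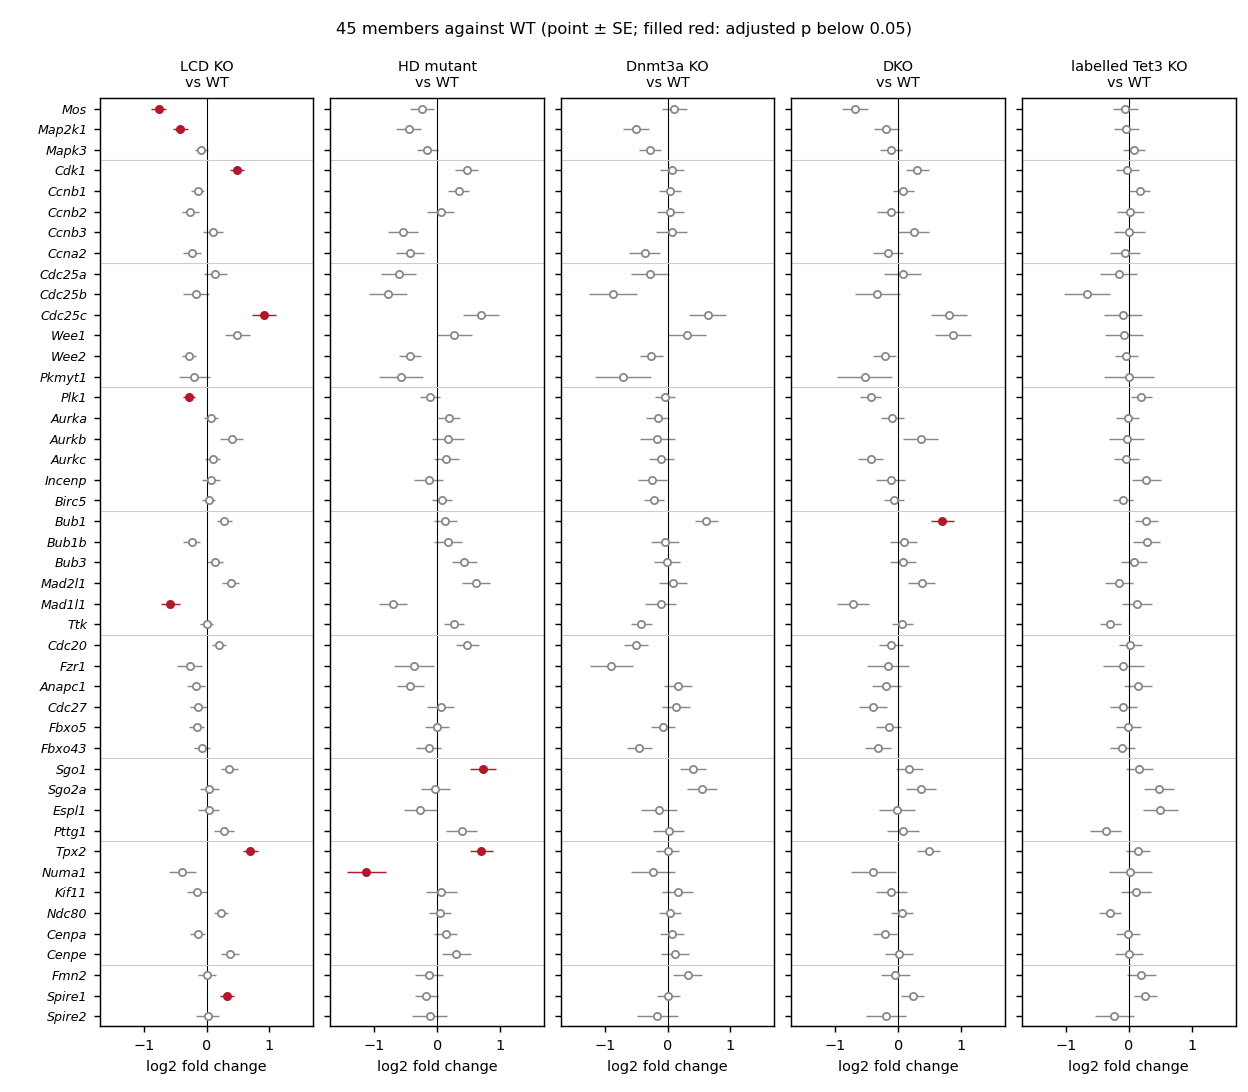
Log2 fold change ± SE of all 45 members by role, for LCD KO, HD mutant and DKO, each against WT, from edgeR with group and batch terms; filled symbols mark an adjusted p below 0.05. Called members were few in each column, 8 for LCD KO, 3 for HD mutant and 1 for DKO, and sat in different roles.

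In the HD mutant Tpx2 was called again, in a comparison that shares its WT libraries with that of LCD KO, together with a pair of further members. Against WT, 3 of 45 members were called (6.67%, against 7.83% of all tested genes): Sgo1 and Tpx2 rose and Numa1 fell. In batch 2, where the stated-batch HD mutant libraries lie, Sgo1 had 83.2, 58.7 and 55.2 CPM in HD mutant, against 33.9 CPM in the single WT library, and Tpx2 had 185, 162 and 132 CPM in HD mutant, against 95.2 CPM in WT. Numa1 had 37.0, 114 and 119.8 CPM in HD mutant, against 213 CPM in WT, with the low first value from HD mutant 1. The HD mutant libraries did not overlap the single WT library of their batch in any of the 3 genes. The same held for members that were not called, such as Mos and Mad1l1, so it does not set the 3 apart. The share over all tested genes was not counted. Over all batches the ranges of HD mutant and WT overlapped in the 3 genes.

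**Figure D3:**
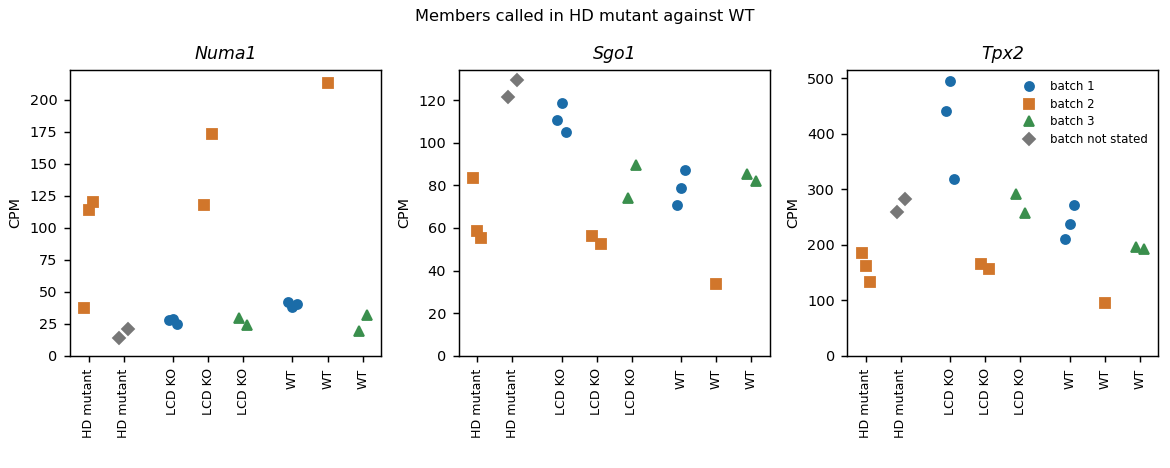
Level of Sgo1, Numa1 and Tpx2 in every HD mutant, LCD KO and WT library, in CPM, with the colour giving the batch. In batch 2 the HD mutant libraries were above WT 4 for Sgo1 and Tpx2 and below it for Numa1, whereas for Tpx2 the WT libraries of batches 1 and 3 were above these HD mutant libraries.

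The log2 fold changes were 0.73 ± 0.21 for Sgo1 (adjusted p = 0.033), 0.70 ± 0.19 for Tpx2 (adjusted p = 0.0215) and -1.13 ± 0.31 for Numa1 (adjusted p = 0.025). They rest on WT 4 and HD mutant 1: without WT 4 the adjusted p-values were 0.192, 0.0888 and 0.139, and without HD mutant 1 they were 0.181, 0.0895 and 0.0669, in the order Sgo1, Tpx2, Numa1. Sgo1 was also lost without WT 1 or WT 2 (adjusted p = 0.0524 and 0.0549). Without a batch term the signs turned, to -0.15 for Sgo1, -0.32 for Tpx2 and 0.48 for Numa1. Among the members that fell in LCD KO, Mos was at -0.24 ± 0.19 (adjusted p = 0.475) in HD mutant, with 1152, 1117 and 1245 CPM in HD mutant 1 to 3 against 1425 CPM in WT 4. Mad1l1 was at -0.70 ± 0.23 (adjusted p = 0.0557 in edgeR and 0.0301 with DESeq2, which called it).

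HD mutant and LCD KO were also compared directly, since a call in one and not the other does not show a difference. None of the 45 members was called by edgeR, against 2.08% of all tested genes. An unadjusted p below 0.05 was found for 8 of the 45, against 12.3% of all tested genes. DESeq2 called 1, Ccnb1, against 2.86% of all tested genes. Mos was 0.53 ± 0.18 on the log2 scale in HD mutant relative to LCD KO (adjusted p = 0.168), Ccnb1 0.48 ± 0.16 (adjusted p = 0.123) and Tpx2 0.01 ± 0.17. Of the others among the 8, Bub1b (0.41 ± 0.20) was higher in HD mutant. Spire1 (-0.50 ± 0.16, adjusted p = 0.131), Cdc25a (-0.75 ± 0.26), Numa1 (-0.74 ± 0.29), Ccnb3 (-0.64 ± 0.21) and Cdc25b (-0.61 ± 0.27) were lower. Spire1 had 101, 148 and 117 CPM in HD mutant and 176 and 175 CPM in LCD KO, all in batch 2. In batch 2 the HD mutant libraries had 1152, 1117 and 1245 CPM of Mos, above the 779.8 and 824 CPM of LCD KO, and 943, 746 and 683 CPM of Ccnb1, above the 607 and 557 CPM of LCD KO. HD mutant 4 and 5, of no stated batch, had 1666 and 1013 CPM of Mos, 6051 and 7187 CPM of Pttg1 and 308 and 183 CPM of Cdk1, and no batch-adjusted value can be given for them.

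No member passed the main test in Dnmt3a KO. In Dnmt3a KO against WT, edgeR called none of the 45, against 0.755% of all tested genes, and DESeq2 called 0, against 1.57%. An unadjusted p below 0.05 was found for 9 of the 45, against 13% of all tested genes. The lowest adjusted p was that of Bub1 (0.61 ± 0.18, adjusted p = 0.124). Of the others among the 9, Sgo2a (0.55 ± 0.24) and Cdc25c (0.64 ± 0.29) were higher. Fzr1 (-0.90 ± 0.34), Cdc25b (-0.87 ± 0.38), Cdc20 (-0.51 ± 0.19), Map2k1 (-0.50 ± 0.20), Fbxo43 (-0.45 ± 0.20) and Ttk (-0.42 ± 0.17) were lower. With no filter on low counts edgeR called Fzr1 (adjusted p = 0.0173), against 1.62% of all genes in that fit. Plk1 was at -0.04 ± 0.16, Ccnb1 at 0.04 ± 0.17, Cdk1 at 0.07 ± 0.19 and Mos at 0.11 ± 0.20, with 1172 and 632 CPM of Mos in the 2 Dnmt3a KO libraries and 820.3 and 699 CPM in the WT libraries of the same batch. The 2 Dnmt3a KO libraries lay on either side of the WT libraries.

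With both genes altered, Bub1 was the 1 member called. BUB1 marks the inner centromere for shugoshin and takes part in the checkpoint. In DKO against WT that is 2.22% of the members, against 3.79% of all tested genes. Bub1 had 256 and 264 CPM in DKO, 214 and 274 CPM in Dnmt3a KO, 199 and 188 CPM in the libraries labelled Tet3 KO and 192 and 145 CPM in WT of batch 3. The DKO libraries and the Dnmt3a KO libraries were all above every WT library of any batch (up to 192 CPM). The share of all tested genes with such a gap was not counted. In DKO against WT the log2 fold change of Bub1 was 0.70 ± 0.18 (adjusted p = 0.0259). It lost its call without WT 6 (adjusted p = 0.103), DKO 1 (0.123) or DKO 2 (0.158). Dnmt3a KO and DKO did not separate in Bub1, since DKO relative to Dnmt3a KO was at 0.09 ± 0.20.

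Mos came next. It had 550.0 and 487 CPM in DKO, 569 and 509 CPM in LCD KO, 1172 and 632 CPM in Dnmt3a KO and 820.3 and 699 CPM in WT, all within batch 3. Both DKO libraries were below all Dnmt3a KO and WT libraries and around the LCD KO libraries. The log2 fold change was -0.69 ± 0.20 in DKO against WT (adjusted p = 0.0542) and -0.80 ± 0.22 in DKO against Dnmt3a KO (adjusted p = 0.0526), both just short of the threshold. With DESeq2 both passed (adjusted p = 0.0179 and 0.0156).

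The 8 members called in LCD KO can be followed into the Dnmt3a-floxed background, where DKO and Dnmt3a KO share no library with LCD KO and WT. DKO relative to Dnmt3a KO was -0.80 ± 0.22 for Mos, -0.40 ± 0.18 for Plk1 and -0.61 ± 0.28 for Mad1l1, all below 0 as in LCD KO against WT. It was 0.23 ± 0.21 for Cdk1, 0.17 ± 0.32 for Cdc25c, 0.48 ± 0.21 for Tpx2 and 0.22 ± 0.20 for Spire1, all above 0 as in LCD KO against WT. Map2k1 had the opposite sign, 0.31 ± 0.22 against -0.42 ± 0.12 in LCD KO. With 2 libraries on each side, the median standard error over the members was 0.24 in this comparison.

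**Figure D4:**
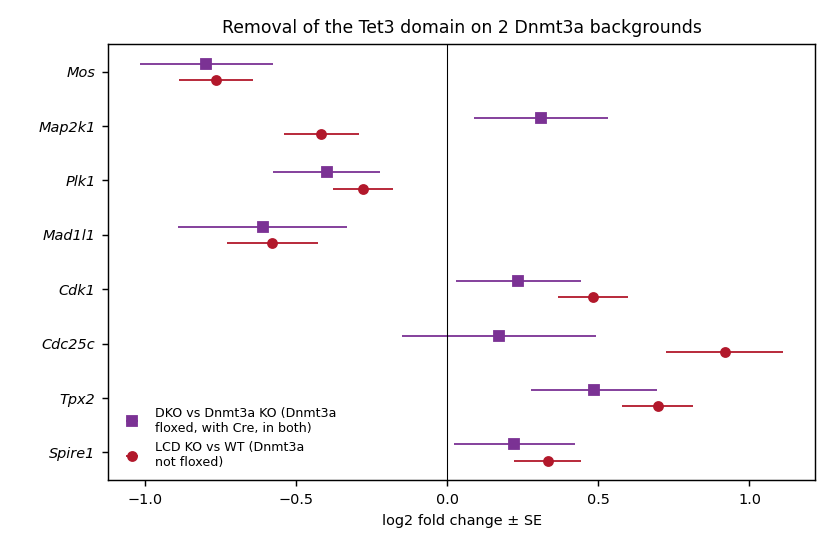
Log2 fold change ± SE of the 8 members called in LCD KO against WT, beside DKO against Dnmt3a KO, from the same edgeR fit. Mos lay at -0.77 in LCD KO against WT and at -0.80 in DKO against Dnmt3a KO, and Map2k1 on opposite sides of 0.

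None of the 45 members was called by edgeR in DKO against Dnmt3a KO, against 1.99% of all tested genes. DESeq2 called 1 (Mos), against 3.21% of all tested genes. An unadjusted p below 0.05 was found for 6 of the 45, against 15.3% of all tested genes. The test of whether the effect of the Tet3 domain depended on the Dnmt3a background called no member, against 0.0678% of all tested genes. DESeq2 called 0 as well, against 0.28%. In this test 4 of the 45 had an unadjusted p below 0.05, against 6.61% of all tested genes. Those 4 were Map2k1 (0.73 ± 0.25), Fzr1 (1.01 ± 0.41), Ttk (0.48 ± 0.21) and Sgo1 (-0.59 ± 0.27), none with an adjusted p under 0.623; for Mos the interaction was -0.03 ± 0.25. In DKO against LCD KO no member was called, against 0.314% of all tested genes, and DESeq2 called 0, against 0.61%. An unadjusted p below 0.05 was found for 2 of the 45, against 7.72% of all tested genes.

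In the libraries labelled Tet3 KO against WT, edgeR called none of the members, against 1.37% of all tested genes. DESeq2 called 0, against 1.98%. An unadjusted p below 0.05 was found for 0 members, against 9.26% of all tested genes. Mos had 893 and 716 CPM in the libraries labelled Tet3 KO and 820.3 and 699 CPM in WT of the same batch, and the groups overlapped. The log2 fold change was -0.06 ± 0.20 for Mos, 0.20 ± 0.16 for Plk1, -0.02 ± 0.19 for Cdk1 and 0.18 ± 0.17 for Ccnb1. All members lay between -0.67 (Cdc25b) and 0.50 (Espl1).

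The wider machinery of meiosis was read from a list of 160 further genes of the same pathways, of which 152 were tested. In LCD KO against WT, 23 rose and 11 fell (22.4%, against 18.3% of all tested genes). The largest share was in cohesin and its regulators, with 4 that rose and 3 that fell of 17, followed by cyclins, CDKs and their regulators, with 5 that rose of 15. No gene of the 18 in the APC/C and ubiquitin list passed, as with the members of that role. The kinetochore and checkpoint list had 6 that rose and 1 that fell of 26, and the spindle assembly list 5 that rose and 2 that fell of 28.

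The strongest change in this list was in Ccne1, which encodes cyclin E1, a partner of CDK2 (1.60 ± 0.20, adjusted p = 2.66e-06). Cdk2 itself rose as well (0.49 ± 0.13, adjusted p = 0.00791), as did the kinetochore genes Ska2 (1.34 ± 0.20), Cenpt (0.91 ± 0.13) and Knl1 (0.65 ± 0.16), and Mad2l1bp, whose product p31comet takes MAD2 out of the checkpoint complex (0.81 ± 0.19). Ppp2ca, the catalytic subunit of the phosphatase PP2A, fell (-0.75 ± 0.16). The mitotic kinesin Kif20a (0.65 ± 0.12) and the G1 cyclin gene Ccnd3 (1.15 ± 0.25) rose. In DKO against WT, 5 of the 152 rose and none fell (3.29%, against 3.79% of all tested genes): Ccne1 (1.93 ± 0.28), Ska2 (1.33 ± 0.30), Cdk2 (0.82 ± 0.20) and the meiotic cohesin genes Stag3 (1.41 ± 0.36) and Rad21l (1.45 ± 0.41), each of which also rose in LCD KO against WT (0.77 for Stag3 and 0.83 for Rad21l). The DKO and LCD KO comparisons share the WT libraries, so these are values side by side and not independent of each other.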

How the data were processed

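RNA of pooled GV oocytes was sequenced, and the authors deposited raw read counts per gene, with no normalization. Per the submitters' processing notes, Trim Galore 0.5.0, HISAT2 2.1.0, featureCounts 1.6.4 and the mm9 build were used; the annotation, strand setting and treatment of reads with several alignments are not given in the sources used here. The table held 24542 features; 92 ERCC spike-in features, with 1 count in all, were left out. Of 26 columns, 2 were identical to 2 others and were counted once. The other 49 same-group pairs gave chi-square values of 3.36 to 133 for each degree of freedom, so none was a repeated library.

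Counts of the 22 libraries with a stated batch were tested with edgeR 4.0.16 (R 4.3.3): TMM factors, filterByExpr by group, robust quasi-likelihood fit, terms for group and batch, 14 residual degrees of freedom, 11794 genes, and Benjamini-Hochberg adjustment over all of them. The test was checked on simulated data. The alternatives were DESeq2 1.42.0, RLE size factors, no batch term, a replicate block, no filter, single batches and leaving out each library. Batch spans used log2 of CPM plus 0.5. Levels per kilobase and 3′ ends came from GENCODE M21 (GRCm38) and promoter windows from RefSeq (GRCm38.p6), not from mm9. P-values measure the spread between pools that the labels call biological replicates; nothing says whether these came from separate females. Intervals of counting error were not needed, because all comparisons are over libraries.

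Every member was accounted for by role. Values per library were given for members called in any comparison and for Mos, Cdk1, Ccnb1 and Plk1, and of the further pathway genes those with the smallest adjusted p were named, up to 10 values; Cdk2, Stag3 and Rad21l were added after their values were seen. One gene that this rule names is not reported here. The members and lists were chosen with earlier results of these data known.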

Additional observations from a re-analysis of the deposited data

Results flagged for a closer look

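In groups of 5 to 7 libraries, the highest or lowest library was set against its nearest neighbour relative to the range of the group (Dixon's criterion), for the 45 members in LCD KO, HD mutant and WT. Of these 135 sets, 8 had a library standing apart. A rate of 1 in 20 would give 6.75, for independent sets each drawn from a single population. The groups here span batches and the genes share their libraries, so 6.75 cannot serve as a chance expectation. In 6 of the 8 the library was WT 4, the one WT library of batch 2: Cdc25a at 121 CPM (nearest other WT library 43.6), Cdc25b at 80.7 CPM (19.7), Numa1 at 213 CPM (42.2), Cdc20 at 161 CPM (218), Sgo1 at 33.9 CPM (70.8) and Cenpe at 132 CPM (243). The LCD KO libraries of the same batch had 67.1 and 94.0 CPM of Cdc25b and 118 and 173 CPM of Numa1, which is also far above LCD KO in the other batches. Spire1 stood apart in WT 1 with 181 CPM (nearest 142). Cdk1 stood apart in HD mutant 4, a library of no stated batch, with 308 CPM (nearest 194).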

How the results depend on the processing

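The batch term decides most calls. Without it, LCD KO and HD mutant against WT each had 0 members called, and DKO against WT kept 1. Over all tested genes the calls came to 4.61%, 3.09% and 2.58% in the same order. With the batch term these shares were 18.3%, 7.83% and 3.79%. Adding HD mutant 4 and 5 to that fit gave 0 for LCD KO, 1 for HD mutant (Plk1) and 0 for DKO against WT. It gave 1 (Spire1) for HD mutant against LCD KO. The shares over all tested genes were then 3.02%, 3.42%, 1.41% and 0.836%. Within single batches, LCD KO against WT had 15, 0 and 0 calls in batches 1, 2 and 3, HD mutant against WT 0 in batch 2 and DKO against WT 0 in batch 3, where fewer libraries enter. RLE size factors gave 2 calls in DKO against WT and 1 in DKO against Dnmt3a KO, the added one being Mos in both. The shares over all tested genes were 3.82% and 2.07%. DESeq2 gave 10 calls in LCD KO against WT (adding Mad2l1 and Sgo1) and 4 in HD mutant against WT (adding Mad1l1). It gave 3 in DKO against WT (adding Mos and Plk1), 1 in DKO against Dnmt3a KO (Mos) and 1 in HD mutant against LCD KO (Ccnb1). Over all tested genes its calls came to 20.9%, 10.3%, 5.14%, 3.21% and 2.86% in the same order. With no filter on low counts there were 2 calls in DKO against WT and 1 in DKO against Dnmt3a KO (Mos). There was 1 in Dnmt3a KO against WT (Fzr1) and 2 in HD mutant against LCD KO. LCD KO against WT still had 8, of which 6 were those named and the others were Mad2l1 and Cenpe. The shares over the 19218 genes of that fit were 3.5%, 2.34%, 1.62%, 2.13% and 12.4% in the same order. Leaving out each library gave 5 to 10 calls in LCD KO against WT and 0 to 5 in HD mutant against WT. Over all tested genes these fits called 14.3% to 19.6% and 3.27% to 9.46%.

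Replicate numbers recur across groups. Of the 6 shared numbers of LCD KO and WT, 5 join libraries of 1 batch, whose deviations from the group means correlated at 0.20 to 0.72, and number 5 joins different batches, at -0.38; HD mutant and WT numbers gave -0.13 to -0.07. The group means were taken over all batches, so these correlations hold the batch differences and cannot show whether numbers mark pairs within a batch. The numbers were not taken as pairs, since number 5 joins different batches. A replicate block in place of the batch term gave 4 calls in LCD KO against WT, 21 in HD mutant against WT, 17 in HD mutant against LCD KO, 11 in Dnmt3a KO, 12 in DKO and 7 in the labelled Tet3 KO libraries against WT, and 9 in DKO against LCD KO, with batch then left unadjusted. Over all tested genes the calls under this block came to 6.94%, 29.5%, 25.8%, 12.2%, 16.6%, 9.86% and 13.5% in the same order. Under this block several log2 fold changes turned: Ccnb1 -1.59, Sgo1 -0.41, Tpx2 -0.71 and Numa1 1.37 in HD mutant against WT; Ccnb1 -1.29 and Plk1 -0.87 in HD mutant against LCD KO; Mos -1.59 in Dnmt3a KO against WT and -1.71 in DKO against LCD KO; and Plk1 -0.63 in the labelled Tet3 KO libraries. Without any batch term or block, HD mutant against WT turned to -0.15 for Sgo1, -0.32 for Tpx2 and 0.48 for Numa1. Groups of 2 libraries and a single WT library in batch 2 limit what can be detected.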
